A study of Laccaria bicolor with 4 samples.

Results

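In the mycelium of L. bicolor, 546 of 23125 annotated genes were silent although the genes on both sides of them were expressed. These solitary silent genes were chosen by their measured levels: the genes were sorted by scaffold, start and end, and a gene was taken where its mean TPM (transcripts per 1000000 transcripts of the library) was 0.05 or less in both conditions, untreated and vitamin C, and where its left and right neighbours on the same scaffold both had a mean untreated TPM above 0.05. They made up 2.36% of all genes and 6.95% of the 7860 genes that were silent in both conditions. The low TPM of these genes and the untreated TPM of their neighbours beyond the threshold are therefore descriptions and were not tested. What the rule did not use is the span of the gene models, their strand, their overlap and distance, and the level of the neighbours with vitamin C.

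Laccaria bicolor is a basidiomycete that forms ectomycorrhiza with tree roots, and the RNA came from mycelium of the haploid monokaryotic strain S238N-H82 (given in the labels as Orton S238N-H82) grown without a host and collected from liquid medium after 8 weeks. Both conditions shared this strain and culture, and they differed in that vitamin C at 5 mM was given to the treated mycelium over 2 days. Each condition had 2 libraries, which the submitters call biological replicates, and p-values measure only the spread between these libraries. Vitamin C is a reducing cofactor that keeps the iron of TET-type dioxygenases active, and the study used it to raise oxidized forms of 5-methylcytosine.

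A gene can go unread in one tissue or growth stage and be transcribed in another, and fungal genomes hold both kinds of neighbourhood: long blocks in which no gene is read, often rich in repeats, and gene-dense regions in which short intergenic spaces separate genes of very different activity. A gene model is a prediction of where a gene lies. Annotations can also hold models that lie inside other genes. The solitary silent genes were therefore set beside 3843 silent genes in 217 stretches of 10 or more consecutive silent genes, and beside 12154 expressed genes that, like them, lay between expressed neighbours. Genes are not replicates of a condition, so these classes are compared by counts, medians and quartiles, with no p-value.

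The 4 libraries held between 4.20 and 5.65 Gb of aligned bases, and genes above the threshold had a median coverage (mean read depth over their exons) between 39.1 and 57.5. Between 14734 and 14861 genes per library were above 0.05 TPM. Neighbours were read from the genes listed, whose identifiers skip numbers, and genes that are not listed were not seen. No table used here pairs the identifiers of the L. bicolor V2 annotation with names, so genes are given by identifier and position, and roles are not given.

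Solitary silent genes were short. Their median span, from the first to the last base of the model with introns included, was 673 bp (quartiles 359.5 and 1224), against 868 bp (465.5 and 1606) for the silent genes in long stretches and 1394 bp (823 and 2194) for the expressed genes between expressed neighbours. Models of 300 bp or less made up 96 of the 546 solitary silent genes (17.6%), 13.0% of the stretch genes and 4.81% of the expressed class. At the other end, 33 solitary silent genes (6.04%) spanned more than 2500 bp, compared with 12.5% and 19.8%. The median was shorter than that of stretch genes in 9 of 10 linkage groups, the exception being linkage group 2 with 916 bp against 840 bp, and it was shorter than that of the expressed class in all 10.

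**Figure D1:**
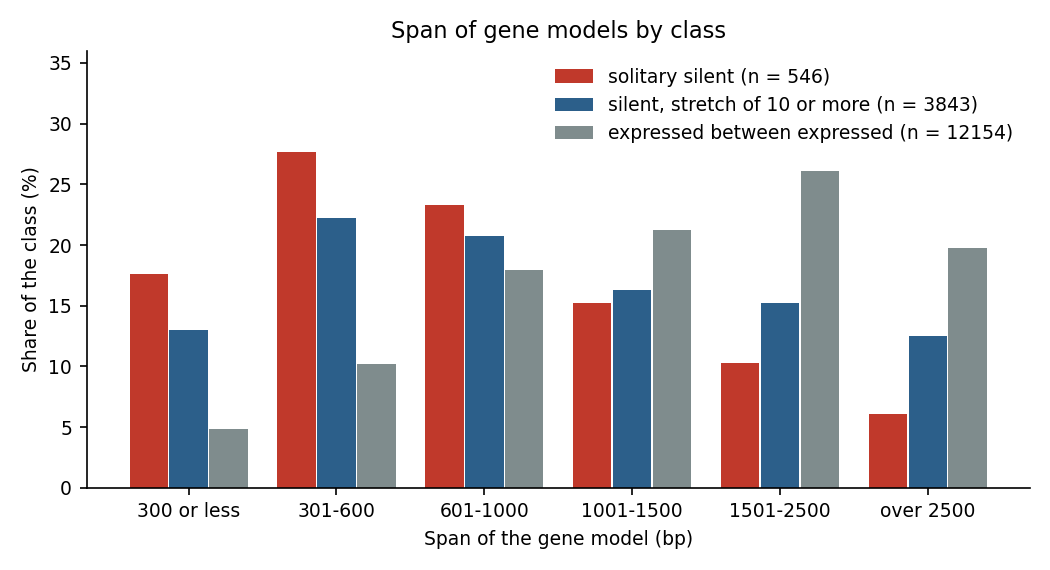
Share of each class (vertical axis, percent) in 6 ranges of gene model span (horizontal axis, bp), for 546 solitary silent genes, 3843 silent genes in stretches of 10 or more and 12154 expressed genes between expressed neighbours. The solitary silent genes have the tallest bar in the ranges up to 1000 bp and the lowest bar in the ranges above it.

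Short models were silent more often in the whole table, with genes of all surroundings pooled. Of the 1905 genes of 300 bp or less 58.2% were silent in both conditions, and of the 3939 genes over 2500 bp 23.8% were. The span of a model made of coding sequence in a single exon is a multiple of 3. The share of spans divisible by 3 was 66.7% among the solitary silent genes of 300 bp or less and 69.3% and 67.0% in the other classes at that size, and among longer models it was 32.7%, 38.0% and 35.8%.

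The shortest solitary silent models were 3 of 150 bp, of which 2 lie on linkage group 10 beside a strongly expressed gene. One, gene_20560 (plus strand, 2081480 to 2081629), was listed at 0 in all 4 libraries and starts 583 bp after a gene with 7.12 and 7.17 TPM in untreated and 5.87 and 3.84 TPM in vitamin C-treated mycelium. The gene 680 bp to its right had 352 and 279 TPM untreated and 406 and 356 TPM with vitamin C. The other, gene_20636 (minus strand, 2232265 to 2232414), was also at 0 in all 4 libraries, 49 bp from a plus-strand gene with 310 and 321 TPM untreated and 242 and 214 TPM with vitamin C. The third, gene_8159 (linkage group 3, plus strand, 723195 to 723344), was at 0 throughout and lay between weaker neighbours, with a mean untreated TPM of 0.125 on the left and 4.95 on the right. Neither of the 2 strong neighbours on linkage group 10 passed the test of vitamin C against untreated (adjusted p = 0.51 and 0.31, limma). The libraries were made from RNA above 200 nt, so a value of 0 for a model of 150 bp is uncertain. Any effect of this size selection was not tested.

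Long models were the exception. The longest, gene_24692 on scaffold 15 (plus strand, 97343 to 108266), spanned 10924 bp, was listed at 0 in all libraries and lay between weakly expressed genes with a mean untreated TPM of 0.417 and 1.30. The left of these was above 0 in 3 libraries, with 0.834 and 0 TPM untreated and 0.174 and 0.702 TPM with vitamin C. The next, gene_14866 on linkage group 5 (plus strand, 3100010 to 3110288), spanned 10279 bp, was at 0 in all libraries, overlapped its minus-strand left neighbour by 1929 bp and held its right neighbour, a model of 666 bp. That inner gene had 0.568 and 0 TPM untreated and 0.641 and 0 TPM with vitamin C. The third, gene_14075 on the same linkage group (plus strand, 1384070 to 1391784, 7715 bp), also held its right neighbour, a same-strand model of 1536 bp with 0.930 and 1.06 TPM untreated and 1.66 and 1.22 TPM with vitamin C, while gene_14075 itself was listed at 0.0451 and 0.0115 TPM untreated and 0.0482 and 0.0294 TPM with vitamin C. It further held gene_14074 (minus strand, 1387987 to 1388937), which was at 0 in all libraries. That inner model is itself among the solitary silent genes and is counted as clear of its adjacent genes. The fourth, gene_21403 on linkage group 10 (plus strand, 3959680 to 3966621, 6942 bp), was at 0 throughout and abutted a minus-strand model of 10707 bp with a gap of 0 bp. All 4 long models had a neighbour with a mean untreated TPM under 1 (0.997 for gene_14075), as did 1 of the 3 shortest. In the whole class, 59.3% of the 546 genes had both neighbours at 1 TPM or more, so these few genes set no contrast by length.

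In overlap with their neighbours the solitary silent genes had a share near that of the expressed class in total, though not in every size range, and above that of the silent genes in stretches. An adjacent model was overlapped by at least 1 bp by 102 of 546 solitary silent genes (18.7%), by 3.28% of stretch genes and by 20.9% of expressed genes between expressed neighbours. The share was higher than that of stretch genes in all 10 linkage groups, from 11.3% to 32.1% against 0.685% to 7.32%. In linkage groups 6, 8 and 9 it rested on only 3, 2 and 3 overlapping solitary silent genes. With any model counted, adjacent or not, 111 solitary silent genes overlapped another. For the 444 genes clear of both neighbours, the median distance was 911.5 bp to the upstream gene and 884.5 bp to the downstream gene, compared with 979 bp and 987 bp for stretch genes and 458 bp and 399 bp for the expressed class. Clear of their neighbours, solitary silent genes took up a median of 25.4% of the interval between the flanking genes, stretch genes 25.9% and expressed genes 56.0%.

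Solitary silent genes differed from both classes in how they overlapped. Of the 102, 69 lay wholly inside a neighbour (12.6% of all 546), against 0.390% of stretch genes and 3.07% of expressed genes between expressed neighbours. Of these 69, 50 had the same strand as the gene around them and 19 the opposite one. A further 31 overlapped a neighbour in part, by a median of 119.5 bp, and 2 held a neighbour. The neighbour around the gene was the left one in 62 cases and the right one in 7, which follows from sorting by start. At the places where 2 adjacent genes meet, 9.62% of the 1092 junctions of a solitary silent gene with its neighbours were overlaps, close to the 10.9% of the 13417 junctions between expressed genes. Only 2.83% of the junctions at the ends of longer silent runs were, both for runs of 2 to 9 and for runs of 10 or more. The silent gene lay inside the expressed one at 6.32% of the junctions of solitary silent genes. At the ends of runs of 2 to 9 and of 10 or more it did so at 1.42% and 0.773%.

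The share fell off with the length of the silent run. Overlap with an adjacent gene was 18.7% for solitary silent genes, 9.57% in runs of 2, 4.27% in runs of 3 to 4 and 2.83% in runs of 5 to 9, and in longer runs it was 3.59% (10 to 19 genes) and 2.87% (20 or more). Part of this follows from the count of junctions, since the inner genes of a run have only silent neighbours and junctions between silent genes overlapped in 1.73% of 6240 cases. Median span did not follow the same course. It was 839.5 bp in runs of 2 and between 833 and 883 bp in all longer runs.

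**Figure D2:**
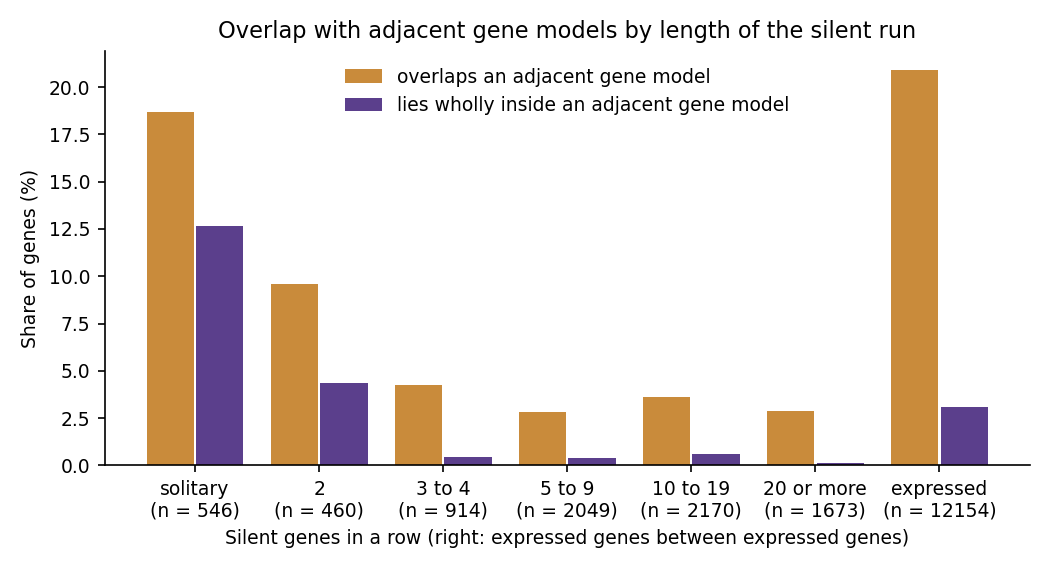
Share of genes (vertical axis, percent) that overlap an adjacent gene model and that lie wholly inside one, for silent genes by the number of silent genes in a row and, at the right, for expressed genes between expressed neighbours. Solitary silent genes reach 18.7% and 12.6%, and no longer silent run exceeds 9.57% and 4.35%.

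Overlap was found in all size ranges. Among solitary silent genes of 300 bp or less, 26.0% overlapped a neighbour and 19.8% lay inside one. Above 600 and up to 1000 bp it was 20.5% and 14.2%, and above 2500 bp it was 9.09% and 3.03% of 33 genes. Stretch genes had between 2.20% and 3.75% in each of the 6 size ranges. The expressed class had 17.1% overlapping at 300 bp or less, 17.9% above 1000 and up to 1500 bp, where solitary silent genes had 9.64%, and 29.6% above 2500 bp. Above 600 and up to 1000 bp the expressed class had 21.1%, near the 20.5% of solitary silent genes. Above 1500 and up to 2500 bp it had 18.9% and solitary silent genes 16.1%. The share of the expressed class inside a neighbour was also higher in short models, with 6.84% at 300 bp or less and 1.17% above 2500 bp. Above 600 and up to 1000 bp it was 4.36%. Without the overlapping genes the median span of the solitary silent genes was 708 bp.

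The genes around the 50 same-strand nested models were strongly expressed, with a median mean untreated TPM of 35.9 (quartiles 14.6 and 77.7), and those around the 19 opposite-strand ones had a median of 11.0 (5.41 and 30.1). The surrounding models were long, with median spans of 3594 bp and 3331 bp, and the nested gene took up a median of 19.9% and 11.7% of them. At least 10 TPM was reached by 41 of the 50 and 11 of the 19 surrounding genes.

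Reads over a stretch that 2 models share can be assigned to either, so the low values of nested genes are uncertain. The highest surrounding level was found for gene_4728 (linkage group 1, minus strand, 10666317 to 10666536, 220 bp). It was listed at 0.0218 and 0.0247 TPM untreated and 0.0182 and 0.0222 TPM with vitamin C, inside a minus-strand model of 2275 bp with 438 and 354 TPM untreated and 632 and 540 TPM with vitamin C. The libraries of the conditions did not overlap for the surrounding gene, and the limma test did not pass (log2 change 0.57 ± 0.17 SE, adjusted p = 0.31). Separation of this kind was found for 244 neighbours higher and 234 lower with vitamin C, beside 1053 neighbours tested. With 2 libraries per condition it often arises without any change. Its share over all genes was not taken, so these counts describe no trait of the neighbours. The values of the inner gene overlapped between conditions.

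The same layout recurred in the next 3. On linkage group 7, gene_17142 (minus strand, 1211894 to 1212177, 284 bp) had 0.00227 and 0.0122 TPM untreated and 0.00233 and 0.00269 TPM with vitamin C, inside a same-strand model of 8328 bp with 390 and 336 TPM untreated and 280 and 356 TPM with vitamin C. On the same linkage group, gene_16611 (minus strand, 81785 to 82269, 485 bp) had 0.0215 and 0.0152 TPM untreated and 0.0200 and 0.0312 TPM with vitamin C, inside a same-strand model of 985 bp with 295 and 383 TPM untreated and 226 and 232 TPM with vitamin C. On scaffold 11, gene_22073 (plus strand, 1007371 to 1008268, 898 bp) was listed at 0 in all 4 libraries although it lay on the same strand inside a model of 1527 bp with 346 and 265 TPM untreated and 377 and 354 TPM with vitamin C. All 4 genes thus lay on the strand of their host, 3 with a trace in every library and 1 with none.

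Most solitary silent genes were listed at 0 TPM in every library. By library, 51 and 55 of the 546 were above 0 in untreated mycelium and 61 and 48 with vitamin C, and 447 (81.9%) were listed at 0 in all 4 libraries. In stretch genes 98.4% were at 0 throughout, and between 0.416% and 0.598% were above 0 per library, compared with 8.79% to 11.2% of solitary silent genes. The highest value of a solitary silent gene in any library was 0.0989 TPM, and the highest coverage was 0.349. A single library above 0.05 was allowed by the rule, which used condition means, and was found for 10 to 15 genes per library.

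Traces in every library were found mostly in overlapping genes. A value above 0 was found in 1 library for 51 genes, in 2 for 12, in 3 for 4 and in all 4 for 32. Of the 51 genes with a trace in 1 library, 44 were clear of both neighbours, and the median non-zero value of the 51 was 0.0566 TPM. The rule bounds the mean of 2 libraries, so a lone value can lie higher than values found in every library. The share that overlapped a neighbour was 13.7% among these 51 and 13.2% among the 447 genes at 0 throughout. Of the 32 genes with a trace in all 4 libraries, 28 overlapped a neighbour, 24 lay inside one and 22 lay inside one on the same strand, and their median was 0.0121 TPM. Of the remaining 4, 3 overlapped a further model that was not adjacent in the sorted order. The exception was gene_21879 on scaffold 11 (plus strand, 638929 to 641586, 2658 bp), with 0.0483 and 0.00998 TPM untreated and 0.0279 and 0.0209 TPM with vitamin C. Among the 3843 stretch genes, 2 had a trace in every library.

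**Figure D3:**
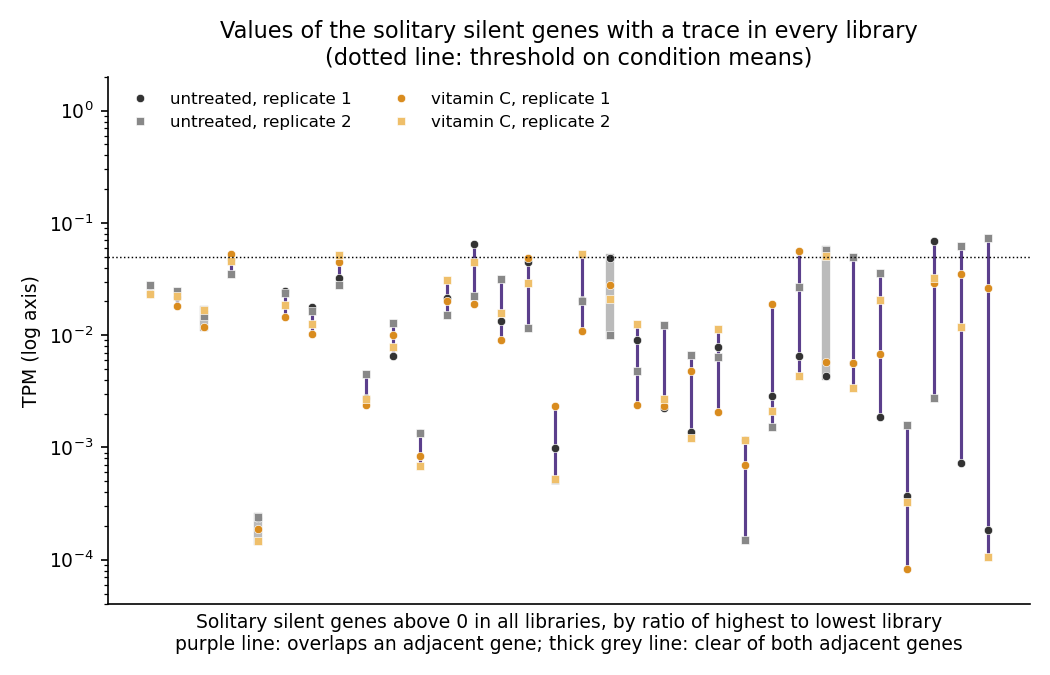
TPM of the 32 solitary silent genes with a value above 0 in every library (vertical log axis), 1 column per gene, ordered by the ratio of the highest to the lowest library. Points are the 4 libraries, lines join the lowest and the highest, purple lines mark the 28 genes that overlap an adjacent gene, thick grey lines the 4 that do not, and the dotted line is the 0.05 threshold on condition means.

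Within these 32 genes the libraries differed widely, with a median ratio of 4.69 between the highest and the lowest library and a ratio under 2 for 11 genes. The steadiest, gene_25483 on scaffold 17 (271 bp), had 0.0240 and 0.0278 TPM untreated and 0.0234 and 0.0234 TPM with vitamin C, inside a same-strand left neighbour of 176 TPM. The least steady, gene_23078 on scaffold 12 (174 bp), had 0.000185 and 0.0729 TPM untreated and 0.0262 and 0.000106 TPM with vitamin C, so that both the high and the low values fell in both conditions. For the 24 that lay inside a neighbour, the untreated TPM was between 0.00102% and 0.674% of that of the surrounding gene, with a median of 0.0255%. The rule holds the inner gene at 0.05 TPM or less, so small percentages of strongly expressed genes follow from it.

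Within each of the 6 size ranges the share with a trace was higher among the overlapping genes, although few of these were long. Among solitary silent genes of 300 bp or less, 14 of 25 that overlapped a neighbour were above 0 in at least 1 library and 6 of 71 that did not were. Above 300 and up to 600 bp these were 14 of 31 and 9 of 120. In the 4 ranges above 600 bp the overlapping genes with a trace numbered 9 of 26, 1 of 8, 4 of 9 and 1 of 3, and those clear of both neighbours 14 of 101, 9 of 75, 11 of 47 and 7 of 30.

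At the threshold the solitary silent genes passed over into weakly listed genes without a gap. Just inside lay gene_12181 (linkage group 4, plus strand, 1369690 to 1370348), with 0.0989 TPM in vitamin C replicate 1 and 0 in the other libraries. It was followed by gene_25193 (scaffold 16, minus strand, 469706 to 470437), with 0.0987 TPM in the same library and 0 elsewhere. The third, gene_17215 (linkage group 7, plus strand, 1381031 to 1381453), had a trace in every library, 0.0475 and 0.0350 TPM untreated and 0.0526 and 0.0460 TPM with vitamin C, and lay inside a neighbour of 83.7 TPM. Just outside, gene_3123 had 0 and 0.101 TPM untreated and 0 and 0.0417 TPM with vitamin C, gene_16448 had 0.101 TPM in untreated replicate 1 alone and gene_8136 had 0.102 TPM in vitamin C replicate 2 alone. The third highest value in a single library belonged to gene_11537 (linkage group 4, plus strand, 4836 to 5751), with 0.0975 and 0 TPM untreated and 0.0360 and 0.0441 TPM with vitamin C.

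The deposited tables carry a mark in the name field, a full stop in place of a dash, in some rows of each library. The sources used here do not give its meaning, and every row with it had a TPM of 0. It was present in all 4 libraries for 21 solitary silent genes (3.85%) and for 1003 stretch genes (26.1%), and in no library for 73.3% and 37.2%. None of the 102 solitary silent genes that overlapped a neighbour carried it in any library, whereas 146 of the 444 clear ones did. In runs of 20 or more silent genes 36.3% carried it throughout.

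In strand, solitary silent genes lay opposite to both neighbours in 146 cases (26.7%), on the strand of both in 114 (20.9%) and on that of one in 286 (52.4%). In stretches 21.5% lay opposite to both neighbours, 28.8% on the strand of both and 49.6% on that of one, and in the expressed class these were 29.2%, 22.4% and 48.4%. The solitary silent genes were nearer to the expressed class in the first pair of shares and nearer to the stretch genes in the last. Without the overlapping genes 126 of 444 solitary silent genes (28.4%) lay opposite to both and 89 on the strand of both. By linkage group the share opposite to both neighbours ranged from 12.5% to 40.5% and was higher than that of stretch genes in only 5 of 10. The difference thus did not recur in every linkage group. Linkage groups 6, 8 and 9, among the lower ones, held only 3, 2 and 2 such genes among 16, 13 and 16 members, so their shares are uncertain.

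The flanking pair itself had the same strand around 260 solitary silent genes (47.6%), pointed away from each other around 133 (24.4%) and towards each other around 153 (28.0%). Around stretch genes these were 50.4%, 24.6% and 25.0%, and around expressed genes 51.6%, 24.8% and 23.6%. The solitary silent gene spanned a median of 590 bp between same-strand neighbours and 730 bp and 734 bp between the others.

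The neighbours were expressed at a moderate level, below that of other expressed genes. There were 1072 different neighbours in 1092 places, since 20 genes stood between solitary silent genes on both sides. Their median TPM by library was 5.93 and 6.88 untreated and 6.60 and 6.001 with vitamin C. For the mean of each condition the median was 6.56 TPM untreated (quartiles 1.07 and 25.3) and 6.52 TPM with vitamin C (1.06 and 25.7), compared with 17.7 and 17.2 TPM for the 12363 expressed genes that had no silent neighbour and 2.85 and 2.53 TPM for the 347 expressed genes at the edge of a silent stretch of 10 or more. The neighbours of solitary silent genes lay below the expressed genes of their own linkage group in all 10 linkage groups. On linkage group 5, in which 56.0% of genes were silent, the medians were 1.13 and 4.40 TPM, and on linkage group 2 they were 13.7 and 19.6 TPM.

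**Figure D4:**
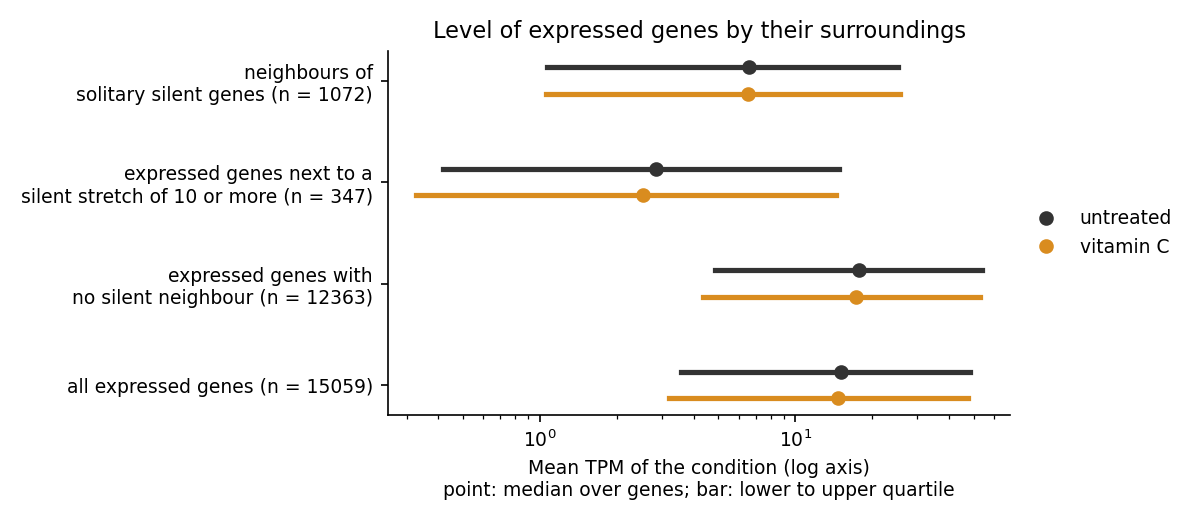
Mean TPM of each condition (horizontal log axis) for expressed genes by their surroundings, with the median over genes as a point and the lower to upper quartile as a bar, untreated above and vitamin C below. The neighbours of solitary silent genes, at 6.56 and 6.52 TPM, lie between the genes at the edge of long silent stretches and the genes with no silent neighbour, and the quartile ranges of all sets overlap.

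Weakly expressed neighbours were common. Of the 1072, 260 (24.3%) had a mean untreated TPM under 1, compared with 8.66% of the expressed genes with no silent neighbour, and 90 (8.40%) reached 100 TPM, compared with 14.3%. For each solitary silent gene, the lower neighbour had a median of 1.72 TPM and the higher one of 19.4 TPM, and around expressed genes these medians were 6.75 and 40.8 TPM. Both neighbours reached 1 TPM for 324 solitary silent genes (59.3%), 10 TPM for 110 (20.1%) and 100 TPM for 8, and both were under 1 TPM for 47. The neighbour upstream of the silent gene was the higher one in 261 of 546 cases (47.8%), and the medians were 5.64 TPM upstream and 7.41 TPM downstream. Across the 546 pairs the log2 levels of the left and the right neighbour were only weakly related (Pearson's r = 0.15, Spearman's rho = 0.15), much as across the 12154 pairs around expressed genes (0.13 and 0.13), and the pairs share libraries.

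Neighbours differed between overlapping and clear genes. Around the 102 overlapping solitary silent genes the lower and the higher neighbour had medians of 5.83 and 30.9 TPM, and around the 444 clear ones 1.31 and 16.9 TPM.

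A few silent genes lay between 2 strongly expressed genes. The gene with the highest lower neighbour was gene_12002 (linkage group 4, plus strand, 970783 to 972410, 1628 bp), at 0 in all 4 libraries. It lay inside a plus-strand model of 4678 bp with 204 and 204 TPM untreated and 258 and 234 TPM with vitamin C, ending 5 bp before that model does. The plus-strand gene that starts 608 bp further on had 754 and 1089 TPM untreated and 1037 and 810 TPM with vitamin C. A nested arrangement was also found for gene_25993 (scaffold 19, minus strand, 313513 to 315269, 1757 bp), listed at 0.00912 TPM in vitamin C replicate 1 and at 0 elsewhere, inside a same-strand model of 5008 bp with 225 and 169 TPM untreated and 224 and 234 TPM with vitamin C. A partial overlap of 275 bp on the same strand was found for gene_17154 (linkage group 7, plus strand, 1247211 to 1247866, 656 bp), at 0 throughout, whose left neighbour had 205 and 128 TPM untreated and 159 and 248 TPM with vitamin C and whose right neighbour, 29 bp away, had 127 and 180 TPM untreated and 129 and 119 TPM with vitamin C.

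The other 2 of the 5 were clear of their neighbours. On linkage group 6, gene_15556 (plus strand, 1494383 to 1495266, 884 bp) was at 0.0451 TPM in untreated replicate 2 and at 0 in the other libraries. The gene 855 bp to its left had 166 and 183 TPM untreated and 192 and 159 TPM with vitamin C, and the gene 1656 bp to its right had 204 and 216 TPM untreated and 155 and 158 TPM with vitamin C. On scaffold 11, gene_22026 (minus strand, 919508 to 920634, 1127 bp) was at 0 in all libraries. The gene 358 bp to its left, on the same strand, had 125 and 117 TPM untreated and 148 and 133 TPM with vitamin C, and the plus-strand gene 819 bp to its right had 194 and 170 TPM untreated and 124 and 131 TPM with vitamin C. The right neighbours of both genes were lower in both vitamin C libraries than in both untreated ones, and neither passed the test (log2 change -0.42 ± 0.14 SE and -0.51 ± 0.15 SE, adjusted p = 0.32 and 0.31, limma). Beside 1053 neighbours tested, 234 were lower in this way and 244 higher. Such a separation often arises without any change with 2 libraries per condition, and its share over all genes was not taken.

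**Figure D5:**
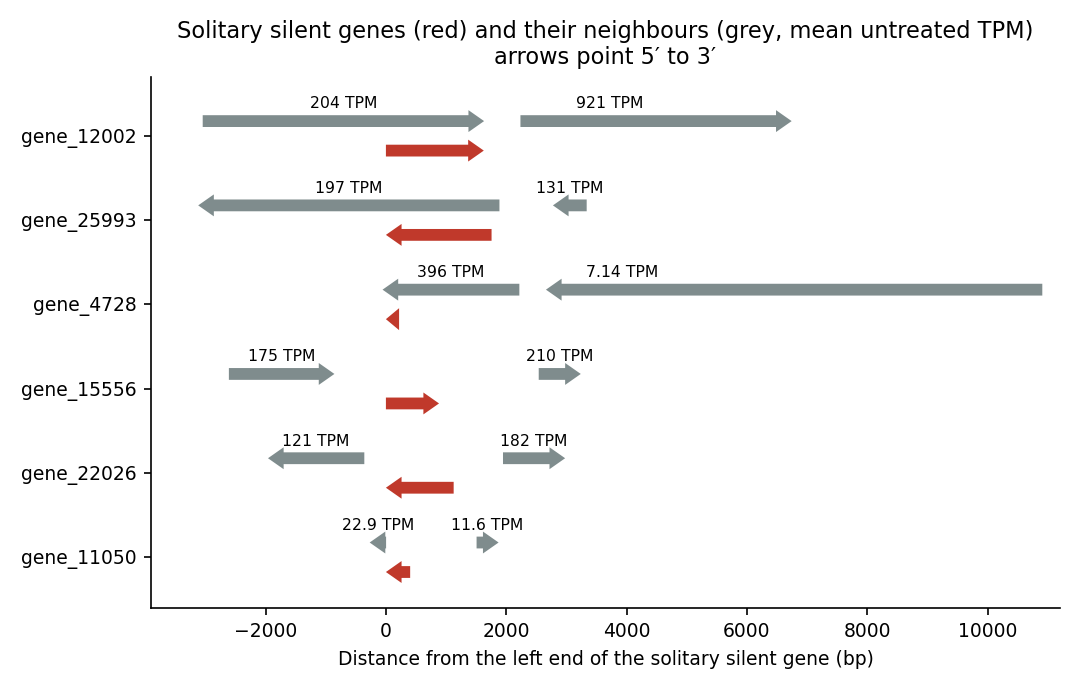
Gene models of 6 solitary silent genes (red) and their neighbours (grey, with their mean untreated TPM) by distance from the left end of the silent gene (horizontal axis, bp), with arrows pointing 5′ to 3′. gene_12002, gene_25993 and gene_4728 lie inside a same-strand neighbour, gene_15556 and gene_22026 stand clear, and gene_11050 overlaps its left neighbour by 4 bp.

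The most isolated solitary silent genes lay several kb from either neighbour. On linkage group 3, gene_8405 (minus strand, 1210521 to 1213024, 2504 bp) lay 5602 bp from a model of 153 bp with 129 and 148 TPM untreated and 215 and 183 TPM with vitamin C, and 6856 bp from a gene with 13.4 and 13.8 TPM untreated and 17.2 and 15.2 TPM with vitamin C. On linkage group 2, gene_7259 (minus strand, 3480608 to 3481176, 569 bp) had gaps of 4852 bp and 9927 bp to neighbours with a mean untreated TPM of 0.339 and 55.8. On linkage group 1, gene_852 (plus strand, 2009570 to 2010625, 1056 bp) had gaps of 4375 bp and 8081 bp to neighbours of 19.3 and 12.2 TPM. All 3 were listed at 0 in every library, and the identifiers between them and their neighbours were skipped in the deposited tables.

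Few neighbours passed the test for a change with vitamin C. No solitary silent gene entered the limma comparison of the conditions, since none had a mean TPM above 0.05. Of the 1053 neighbours that did, 3 passed at an adjusted p under 0.05, all of them lower with vitamin C (0.285%), beside 14 of the 15107 genes tested (0.0927%), of which 7 were lower (0.0463%). The rule asked for an untreated TPM above 0.05 in a neighbour and asked nothing of vitamin C, so it admits genes that are lost with vitamin C and not genes that appear with it, and the count in that direction is not independent of the rule. At an unadjusted p under 0.05 there were 120 neighbours (11.4%), 62 higher and 58 lower, against 13.1% of all genes tested. The median change was 0.0032 on the log2 scale for neighbours and -0.019 for all genes tested.

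The 3 neighbours that passed were all listed at 0 in both vitamin C libraries. On linkage group 3, gene_11049 (minus strand, 6851882 to 6852155, 274 bp) had 23.6 and 22.2 TPM untreated (limma, adjusted p = 0.0013) and overlapped by 4 bp the solitary silent gene_11050 (minus strand, 6852152 to 6852555, 404 bp), which was at 0 in all libraries. On the same linkage group, gene_9823 (minus strand, 4265918 to 4267117, 1200 bp) had 4.28 and 4.44 TPM untreated (adjusted p = 0.0090, limma) and overlapped by 893 bp the same-strand gene_9824 (4266225 to 4267865, 1641 bp), also at 0 throughout. On linkage group 7, gene_17011 (minus strand, 921377 to 921694, 318 bp) had 3.32 and 2.20 TPM untreated (adjusted p = 0.043, limma) and lay 770 bp from gene_17009 (minus strand, 919333 to 920606, 1274 bp), at 0 throughout. All 3 lay on the strand of the silent gene beside them.

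These 3 calls rested on every library and on the filter on low values. With any one of the 4 libraries left out none of the 3 passed, with adjusted p between 0.0504 and 0.0848 for gene_11049, 0.079 and 0.27 for gene_9823 and 0.098 and 0.54 for gene_17011. Without the filter none passed either (adjusted p = 0.18, 0.062 and 0.39 in that order). The call of gene_17011 also ended without the trend (adjusted p = 0.096), with quantile normalization (0.13) and with FPKM (0.071), and it passed in 3 of the 7 alternatives that kept all libraries and had no replicate block. A value of exactly 0 in single libraries was also found beside high values in others: gene_24978 on scaffold 16 (plus strand, 35871 to 36792), a neighbour of a solitary silent gene that was named after its values were seen, had 84.7 and 78.7 TPM untreated and 55.1 and 0 TPM with vitamin C (adjusted p = 0.39, limma), and it passed only without vitamin C replicate 1 (adjusted p = 0.044).

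In all, 44 neighbours (4.10%) had a mean TPM of 0.05 or less with vitamin C, compared with 2.01% of all expressed genes, 1.21% of those with no silent neighbour and 8.65% of those at the edge of a long silent stretch. The 44 had a median untreated TPM of 0.118 and a highest of 22.9, that of gene_11049. As a consequence, 45 of the 546 solitary silent genes had a silent neighbour with vitamin C, 1 of them on both sides, and 501 stood between expressed genes in both conditions.

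The solitary silent genes were spread over the genome. Of the 546, 420 lay on the 10 linkage groups and 126 on 16 of the 44 other scaffolds. They made up between 1.18% (linkage group 6) and 3.32% (linkage group 5) of the genes of a linkage group and between 3.38% (linkage group 6) and 10.2% (linkage group 2) of its silent genes. A further 48 silent genes had no silent gene beside them and were not members, since they lay at the end of a scaffold or next to a gene that was above the threshold with vitamin C alone.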

How the data were processed

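Total RNA above 200 nt from 2 untreated and 2 vitamin C libraries was depleted of ribosomal RNA and sequenced from stranded libraries. The authors trimmed reads (BBDuk), mapped them to version V2 of the genome (hisat2), removed duplicates (samtools) and quantified annotated genes (StringTie). For StringTie the sources used here give no strand setting. FastQC, HISAT2 and SAMtools are named in the submitters' processing notes. The deposited TPM values sum to 1000000 in each library. The deposited FPKM values served as an alternative, and the coverage the authors deposited, divided by FPKM, gave the aligned bases. No counts were recovered, so no count model and no counting interval was used.

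The 23125 genes were matched by identifier and sorted by scaffold, start, end and identifier. Genes of 0.05 TPM or less in both condition means were called silent. Overlap was counted from 1 bp, on either strand. The members and lists were chosen with earlier results of these data known. Genes were named by rule: the 5 with the highest lower neighbour, the 4 longest and 2 shortest (of 3 tied, all given), the 4 inside the highest neighbour and those holding one, 3 on each side of the threshold, the 3 with the largest gap, those next to a neighbour that passed the vitamin C test and the 3 with the highest single value. gene_21879, gene_25483, gene_23078 and gene_24978 were chosen after their values were seen.

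Vitamin C was compared with untreated by limma 3.58.1 (R 4.3.3) with a trend, two-sided, on log2(TPM + 1), over 15107 genes with a mean TPM above 0.05, with Benjamini-Hochberg adjustment. Changes on this scale understate those of low genes. The script was tested on simulated data. Python 3.11.15, numpy 2.4.6, pandas 2.3.3, scipy 1.17.1 and matplotlib 3.10.9 were used. Alternatives covered the thresholds, the length of a stretch, each library left out, scaffolds under 100 kb left out, FPKM, the pseudocount, the filter, the scaling, the variance model and the replicate block. Of the gene identifiers, 0 matched the RefSeq gene table, which is of another assembly, and no sequence was used.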

Additional observations from a re-analysis of the deposited data

How the results depend on the processing

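The median span of the solitary silent genes stayed between 647 and 708 bp and the share opposite to both neighbours between 26.1% and 28.4% under all 12 alternatives to each. The share overlapping a neighbour was 15.2% at a threshold of 0.01 TPM, 12.6% with genes at 0 in all 4 libraries only and 24.4% with neighbours above 1 TPM, against 2.87% to 3.403% of stretch genes under their 9 alternatives. The median untreated TPM of the neighbours was 4.98 at a threshold of 0.01, 4.48 with genes at 0 only, 13.1 with neighbours above 1 TPM, which kept 324 members, and 4.93 without the members that overlap a neighbour, chosen after seeing the data. The cause was not tested, beyond what each definition itself sets.

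Of the neighbours, 3 were called changed by vitamin C in the main comparison, 0 without a filter on low values, 2 without the trend, with quantile normalization or with FPKM, and 0 to 1 with a library left out. The last compares a lone library, assumed to vary like the other condition, with 2. With the replicate block 9 were called. No source ties the replicate numbers, and the deviations of same-numbered libraries correlated at -0.256 over 15107 genes. With crossed pairing, chosen after seeing the data, 15 were called. With 2 libraries per condition, values near 0 TPM and changes of weak neighbours are poorly resolved.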
